A study of Mus musculus with 18 samples.

Results

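In liver of mice that lacked CTCF in hepatocytes, 619 regions carried acetylated lysine 27 of histone H3 (H3K27ac) in the peak lists of all 3 knockout libraries and in none of the 3 wild-type libraries. They were found by joining the peaks of the 6 lists, on chromosomes 1 to 19 and X, wherever peaks overlapped by at least 1 bp, which gave 57342 regions in all. The knockout-only (KO-only) regions were 1.08% of these. In the opposite direction 99 regions (0.173%) were called in all 3 wild-type lists and in no knockout list. The regions were chosen by these H3K27ac calls, so their H3K27ac values are described here and not tested.

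KO mice were C57BL/6, 8 weeks old, of genotype CTCF fl/fl Albcre+. WT mice had the same strain and age and the genotype CTCF fl/fl Albcre-, so they carried the floxed alleles without the recombinase. The Cre transgene is driven by the albumin promoter and acts in hepatocytes, so the other cells of a KO liver keep an intact Ctcf gene, and whole tissue was profiled by ChIP-seq. H3K27ac had 3 KO (KO 2, 3 and 4) and 3 WT libraries (WT 1, 2 and 4), PPARg and CTCF had 2 and 2, and H3K4me3 and H3K27me3 had 1 and 1. The CTCF libraries and PPARg KO 7, KO 8 and WT 2 came from male mice after an overnight fast and were made by tagmentation. All H3K27ac, H3K4me3 and H3K27me3 libraries and PPARg WT 4 were made with a ligation kit, with no sex or fast given, and their growth text describes neural stem cells although tissue and source are liver. Nothing in the labels says whether libraries of 1 group came from separate animals, so p-values measure only the spread between libraries.

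H3K27ac is laid down by the acetyltransferases p300 and CBP and marks active enhancers and active promoters. H3K4me3 marks the start of active genes, and H3K27me3 is the repressive mark of Polycomb complex PRC2. CTCF is a zinc-finger protein that halts cohesin at the boundaries of chromatin loops and can keep an enhancer from reaching a promoter. PPARg is a nuclear receptor that binds DNA as a dimer with RXR and, in liver, drives genes of lipid uptake and lipid droplets.

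Few KO-only regions lay at a gene start, and promoters inside them are shown because they are the stretches of these regions where a gene begins. Of 32619 RefSeq promoter windows (GRCm38.p6, 250 bases before a start to 50 after it), 38 lay wholly inside 35 KO-only regions. They belonged to 37 genes, of which 22 code for proteins. The windows were searched on both strands for 8 motifs. Nuclear receptors such as PPARg bind repeats of the half-site AGGTCA, and the PPAR element was searched as that half-site repeated head to tail with 1 base of any kind between the copies. Blood cell enhancers often hold the PU.1 site, searched as GAGGAAGT, and active promoters often hold the ETS site, searched as CCGGAAGT. The AP-1 site, bound by the Fos and Jun proteins of the stress response, was searched as TGANTCA. The GATA site was searched as AGATAA, the CCAAT box of NF-Y by the letters of its name, and the core of the CTCF motif as AGGNGGCGC. The half-site is part of the PPAR element, and the other motifs could also overlap. Capitals below mark every match of these motifs. Cyp2b10 encodes a drug-metabolizing cytochrome P450 and was the only gene of the marker and process lists with its window inside a KO-only region. The others were chosen after their matches were seen: Ccl3 (a macrophage chemokine), Vav1 (a guanine nucleotide exchange factor of blood cells), Lpar5 (a lysophosphatidic acid receptor) and the loci Gm36169 and Gm33398. The windows are chr7:25897408-25897707 (plus strand) for Cyp2b10, chr11:83649329-83649628 (minus) for Ccl3, chr17:57278850-57279149 (plus) for Vav1, chr6:125071085-125071384 (plus) for Lpar5, chr16:90677415-90677714 (minus) for Gm36169 and chr7:129764621-129764920 (minus) for Gm33398.
Cyp2b10: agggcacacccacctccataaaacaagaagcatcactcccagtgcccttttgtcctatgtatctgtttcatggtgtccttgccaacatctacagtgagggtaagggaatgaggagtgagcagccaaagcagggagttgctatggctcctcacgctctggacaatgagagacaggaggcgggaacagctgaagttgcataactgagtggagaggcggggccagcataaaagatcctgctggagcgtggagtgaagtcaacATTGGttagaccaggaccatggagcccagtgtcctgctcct
Ccl3: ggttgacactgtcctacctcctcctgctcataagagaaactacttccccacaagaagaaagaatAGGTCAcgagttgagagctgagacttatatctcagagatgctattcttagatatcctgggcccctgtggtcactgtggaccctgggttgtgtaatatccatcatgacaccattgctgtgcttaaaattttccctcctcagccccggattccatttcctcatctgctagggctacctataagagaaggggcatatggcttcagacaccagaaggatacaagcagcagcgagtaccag
Vav1: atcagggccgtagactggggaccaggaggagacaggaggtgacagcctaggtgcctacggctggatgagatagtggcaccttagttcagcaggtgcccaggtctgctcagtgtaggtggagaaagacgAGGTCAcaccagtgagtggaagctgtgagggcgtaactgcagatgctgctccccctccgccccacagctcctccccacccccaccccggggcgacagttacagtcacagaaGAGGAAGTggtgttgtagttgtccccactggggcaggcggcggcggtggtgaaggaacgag
Lpar5: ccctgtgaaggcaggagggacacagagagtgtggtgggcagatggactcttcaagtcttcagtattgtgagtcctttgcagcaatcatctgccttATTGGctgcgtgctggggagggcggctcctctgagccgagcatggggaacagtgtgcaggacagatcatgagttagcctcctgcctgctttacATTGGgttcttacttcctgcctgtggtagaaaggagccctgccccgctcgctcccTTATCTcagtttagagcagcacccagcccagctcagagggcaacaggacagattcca
Gm36169: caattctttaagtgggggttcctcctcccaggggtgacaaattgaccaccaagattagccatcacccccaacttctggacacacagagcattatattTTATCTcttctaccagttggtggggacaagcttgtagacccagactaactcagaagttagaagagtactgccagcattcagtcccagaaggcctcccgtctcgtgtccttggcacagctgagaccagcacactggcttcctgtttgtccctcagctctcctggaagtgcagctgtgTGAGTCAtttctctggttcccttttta
Gm33398: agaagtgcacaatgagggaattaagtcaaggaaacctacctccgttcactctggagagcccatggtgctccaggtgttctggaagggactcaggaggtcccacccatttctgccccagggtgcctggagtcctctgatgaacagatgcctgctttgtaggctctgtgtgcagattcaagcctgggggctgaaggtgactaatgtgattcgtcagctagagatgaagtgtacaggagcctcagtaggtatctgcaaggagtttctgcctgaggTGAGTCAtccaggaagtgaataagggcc

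The nuclear receptor half-site was found in 7 of the 38 windows (18.4%), against 16.2% of all promoter windows, as in the Ccl3 and Vav1 promoters above. No window held the full PPAR element, which 0.0399% of all windows held. The CCAAT box stood in 13 windows (34.2%, against 37.6% of all), and the GATA site in 5 (13.2%, against 11.2%). The PU.1 site was found in the Vav1 window alone (2.63%, against 3.22% of all), and the CTCF core in 2 (5.26%, against 3.32%). The ETS site was in none of the 38, and in 3.91% of all windows and 8.16% of the 12554 windows inside regions called in all 6 lists. The AP-1 site was in 7 of the 38 (18.4%), against 7.85% of all windows and 5.30% of those inside regions called in all 6 lists. All 7 belonged to predicted loci (Gm13986, Gm15473, Gm33323, Gm33398, Gm34026 and Gm36169), some of whose windows overlap each other, so the 7 are not independent. These shares describe letters in the windows and were not tested.

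The KO-only regions were weak calls. Their median fold enrichment over background, the peak caller's ratio, was 3.03 in KO 2, 2.93 in KO 3 and 2.65 in KO 4. The medians over all peaks of the same lists were 3.58, 3.36 and 2.91. Low folds were not particular to the KO-only regions. Regions called in all 3 KO and 1 WT list had 3.07, 2.99 and 2.75 in the same KO lists. Those called in 2 KO and no WT list had 2.98, 2.88 and 2.55 where a list held a peak. The WT-only regions had 3.11, 2.84 and 3.11 in WT 1, WT 2 and WT 4. By −log10 q, the significance on which peaks were ranked within a list, 593 of the 619 lay below the median peak in KO 2, 581 in KO 3 and 515 in KO 4. Their median percentile was 17.1 in KO 2, 21.9 in KO 3 and 34.7 in KO 4. KO 4 had the longest list, with 51299 peaks over 126 Mb, against 35469 and 39084 peaks in KO 2 and KO 3, and 34315 to 40532 peaks over 78.2 to 91.5 Mb in the WT libraries. It covered more of the region than KO 2 or KO 3 did in 405 of the 619 (65.4%). Peak lists hold no read depth, and the part of depth in these differences was not tested.

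**Figure D1:**
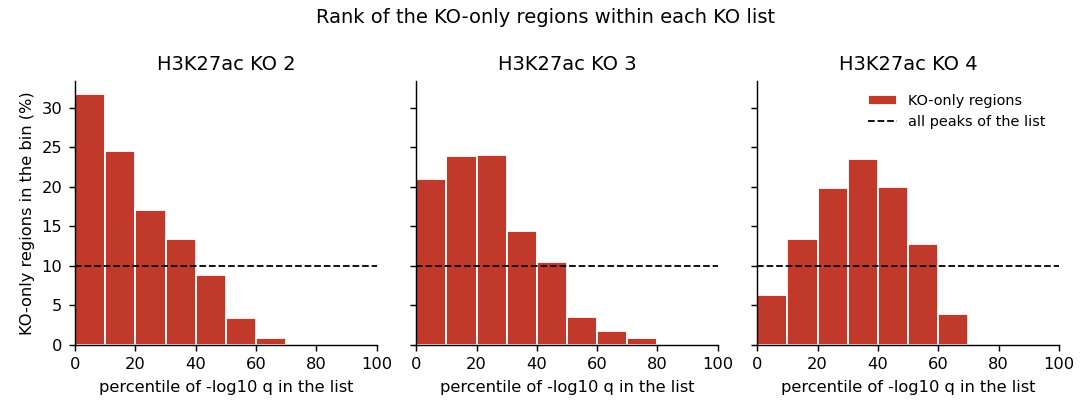
Percentile of −log10 q of the KO-only regions among all peaks of H3K27ac KO 2, KO 3 and KO 4 (x axis), as the percentage of the 619 regions in each bin (y axis, bars); the dashed line is what all peaks of a list give. In each list the bars pile up on the left, with medians at 17.1, 21.9 and 34.7.

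At the edge of the rule the calls ran close to the threshold of the lists, which is a −log10 q of about 1. The weakest of the 3 KO calls of a KO-only region had a median −log10 q of 1.46, with a lowest of 1.05 and a highest of 2.59. Just outside the rule were 1062 regions called in all 3 KO and 1 WT list, whose WT call had a median of 1.80 (lowest 1.02, highest 5.99), and in 662 of them it was under 2. Another 2567 regions were called in 2 KO and no WT list, with a median of 1.42 for the weaker KO call. Only 24 KO-only regions reached a −log10 q of 2 in all 3 KO lists, and none reached 3. In 531 of the 619 (85.8%, 95% Wilson interval 82.8 to 88.3) at least 1 base was covered by all 3 KO lists, with a median of 301 shared bases over all 619. In the other 88 the KO peaks were joined through a neighbour without a base common to all 3. Wilson intervals here and below cover counting error over regions only.

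The number of KO-only regions depended on the lists that entered. With the lists shortened to the same number of peaks there were 382 KO-only and 249 WT-only regions, and with the lists shortened to the same covered length 35 and 262, so the order of the 2 genotypes turned. Without KO 4, the longest list, there were 718 KO-only and 530 WT-only regions. Leaving out KO 2 gave 2353 and 119, and leaving out KO 3 gave 1411 and 139. Without WT 1 there were 964 and 281, without WT 2 1192 and 168, and without WT 4 761 and 299. Leaving out a list loosens the rule, so higher counts of both kinds were favoured in advance. With a −log10 q of at least 2 there were 226 and 90, of which 24 overlapped the 619.

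**Figure D2:**
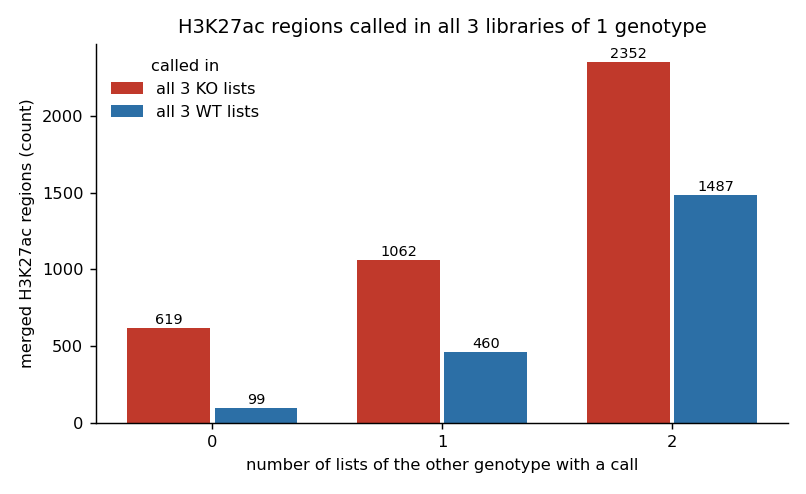
Number of merged H3K27ac regions (y axis) called in all 3 lists of 1 genotype, by how many lists of the other genotype also called them (x axis); KO bars stand left of WT bars. The KO bar is the taller one at each step, 619 against 99 with no call in the other genotype.

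KO-only regions mostly lay away from gene starts. Their median width was 1533 bp (range 425 to 5282), close to the 1556 bp of all regions, against 3475 bp for the 22732 regions called in all 6 lists and 1184 bp for the 99 WT-only regions. Together they spanned 1055 kb. A listed transcription start lay within 1 kb of 61 of the 604 KO-only regions on chromosomes with promoter windows (10.1%, interval 7.94 to 12.8), against 20.6% of all regions and 40.0% of those called in all 6 lists. The classes most like them were low as well, with 8.25% of WT-only regions and 13.1% of the regions of 3 KO and 1 WT list. Some genes have no listed start, so all these shares are lower bounds. The KO-only region at Gdf6, for example, overlapped the gene, yet its nearest listed start was 72244 bp away. In all, 351 (56.7%) lay inside or touched a protein-coding gene, against 68.1% of all regions. The other 268 lay a median of 28.3 kb from the nearest such gene. The nearest region called in all 6 lists was a median of 16.8 kb away, against 13.1 kb for the regions of 3 KO and 1 WT list and 7.19 kb for WT-only regions. They were spread over every chromosome, from 0.679% of the regions on X (6 regions) to 1.42% of those on chromosome 5. Only 58 had another KO-only region within 50 kb.

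PPARg was called at many more KO-only regions in KO than in WT liver. A PPARg peak overlapped 123 of the 619 in KO 7 and 107 in KO 8, against 23 in WT 2 and 26 in WT 4. These are 19.9% and 17.3% in KO, and 3.72% and 4.20% in WT. The mean share was 18.6% ± 1.83 in KO and 3.96% ± 0.343 in WT (SD, n = 2 each), a difference of 14.6 percentage points. Both KO libraries lay above both WT libraries, and the two-sided exact permutation p was 0.333, the smallest that 2 against 2 libraries can give, with 0.444 after Benjamini-Hochberg adjustment over the 4 tests made. Within the tagmentation libraries of fasted males the shares were 19.9% (KO 7) and 17.3% (KO 8), against 3.72% (WT 2).

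The KO PPARg lists were longer than the WT lists, with 27431 and 26345 peaks against 15514 and 16612, so the share was also read against all H3K27ac regions in the same library. KO-only regions held a PPARg peak 0.746 and 0.675 times as often as all regions in KO 7 and KO 8, against 0.209 and 0.240 times in WT 2 and WT 4. The difference was 1.66 on the log2 scale (exact permutation p = 0.333, adjusted 0.444). In both genotypes the KO-only regions were thus poorer in PPARg than the average region, and the gap was smaller in KO. The ratio of the mean KO share to the mean WT share was 4.69 at KO-only regions, 3.05 at regions of 2 KO and no WT list, 2.57 at regions of 3 KO and 1 WT list, 1.48 at all regions, 1.45 at WT-only regions and 1.31 at regions of all 6 lists. When the 4 PPARg lists were shortened to the same length, an alternative added after seeing the data, the difference in share was 6.70 points, and with a −log10 q of at least 10 it was 7.03 points. Without H3K27ac KO 2, which gives 2353 regions, it was 8.48 points. The libraries of the 2 genotypes did not overlap under any of these 3 settings. PPARg WT 2 and WT 4 carry the same names as H3K27ac WT 2 and WT 4, whose missing calls helped to choose the regions, while PPARg KO 7 and KO 8 share no name with the H3K27ac KO libraries. Whether a shared name means the same animal is not given, and the part of this in the difference was not tested. With H3K27ac WT 2 left out of the choice, the difference was 14.8 points and 1.06 on the log2 scale relative to all regions, and with WT 4 left out 14.1 points and 1.56.

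Across libraries, 63 KO-only regions (10.2%, interval 8.04 to 12.8) had PPARg in both KO lists and neither WT list, against 5.18% of all regions, 7.53% of regions of 3 KO and 1 WT list and 7.16% of regions of all 6 lists. None had PPARg in both WT lists and no KO list (0 of 619, which allows up to 0.485%), against 0.274% of all regions. Another 29 had it in both KO lists and at least 1 WT list, 14 of them in all 4 (2.26%, against 13.8% of all regions), and 41 in 1 KO list alone. The patterns of the 29 and the 41 were not counted over all regions, so they cannot be read as particular to the KO-only regions. The PPARg peaks there were of ordinary height: their median fold was 6.22 in KO 7 and 7.30 in KO 8, against 7.01 and 6.74 over all peaks of those lists. Of the 63 regions, 30 lay inside or touched a gene and 1 held an H3K4me3 peak.

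**Figure D3:**
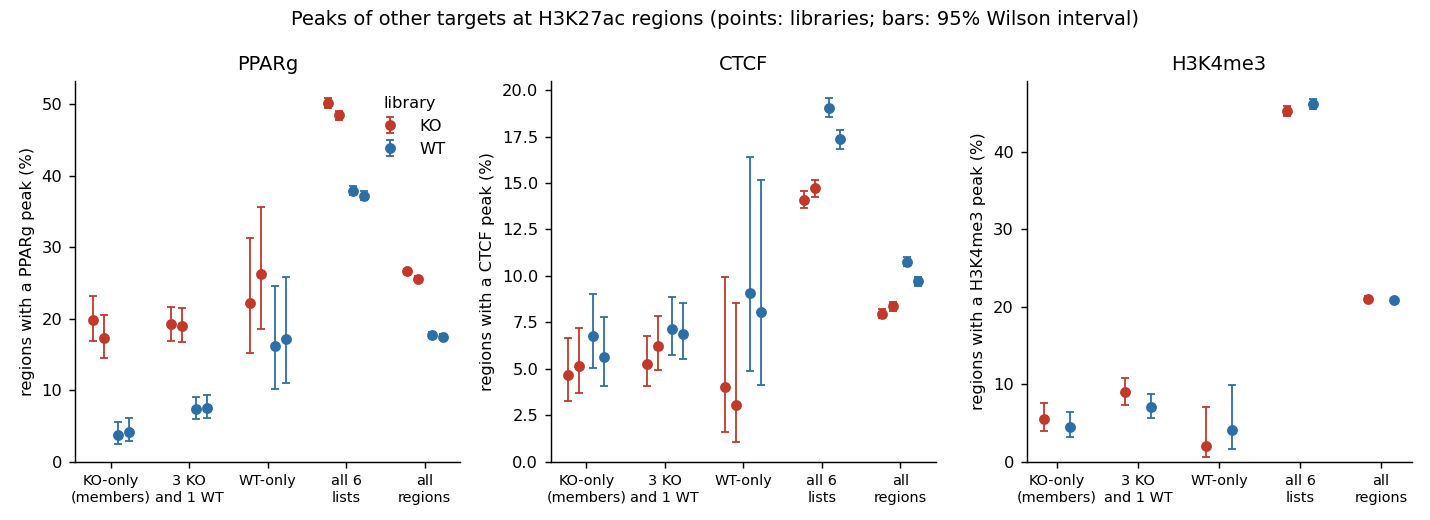
Percentage of H3K27ac regions (y axes) with a peak of PPARg, CTCF or H3K4me3, by which H3K27ac lists called the region (x axes); each point is 1 library, KO left of WT, with its 95% Wilson interval. For PPARg the KO points at KO-only regions stand at 19.9% and 17.3%, above the WT points at 3.72% and 4.20%, while the CTCF points at these regions lie between 4.68% and 6.79%.

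The 5 KO-only regions with the highest PPARg fold among these 63, which by choice had no PPARg peak in either WT list, are named here. A region inside Prrc2a (chr17:35152018-35152983) had PPARg folds of 18.5 in KO 7 and 12.3 in KO 8. A region inside Ccdc162 (chr10:41708598-41711753) had 13.02 and 16.3, and its H3K27ac folds were 3.55, 3.15 and 2.78 in KO 2, 3 and 4. The third touched Fcna, which encodes ficolin A, a lectin that starts the complement cascade (chr2:25632834-25634319, 17.5 and 9.55). The fourth lay 6.48 kb from Sult2a6, a hydroxysteroid sulfotransferase gene in a cluster of near-identical copies, where reads could be split between copies (chr7:14215018-14215927, 13.02 and 14.04). The fifth was 92.1 kb from Cpn2, a subunit of the plasma enzyme carboxypeptidase N (chr16:30162378-30164321, 13.5 and 11.5). All 5 were modest H3K27ac calls, with a mean percentile over the KO lists of 14.9 to 40.4.

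CTCF was called at few KO-only regions in either genotype. Its peaks overlapped 29 in KO160 and 32 in KO163, against 42 in WT164 and 35 in WT165. The mean share was 4.93% ± 0.343 in KO and 6.22% ± 0.800 in WT (SD, n = 2 each), a difference of −1.29 points (two-sided exact permutation p = 0.333, adjusted 0.444). The WT libraries lay above the KO libraries, as they did at all regions, where the mean shares were 8.17% and 10.2%. Similar classes were low too, with 4.79% in KO and 5.65% in WT at regions of 2 KO and no WT list. Regions of 3 KO and 1 WT list had 5.74% and 7.02%, and WT-only regions 3.54% and 8.59%. Read against all regions of the same library the ratios of KO-only regions overlapped, 0.587 and 0.619 in KO against 0.631 and 0.582 in WT, and the log2 difference was −0.01 (exact permutation p = 1). The difference in share at KO-only regions turned to 0.323 points when the 4 CTCF lists were shortened to the same length. The CTCF lists held 18597 and 20323 peaks in KO and 27580 and 24565 in WT. At the Ctcf gene each of the 4 lists had 3 peaks. These peaks show CTCF binding there and cannot show whether the gene was deleted.

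Of the KO-only regions 6 (0.969%) held a CTCF peak in both WT lists and no KO list, against 0.963% of all regions. They lay inside Magi2 and Utrn, 1.30 kb from E2f6, 1.02 kb from Slc48a1, 6.37 kb from Prss22 and 84.1 kb from Oat, and are named because they are so few. The Prss22 region (chr17:24007091-24008326) had CTCF folds of 6.14 and 4.54 in WT164 and WT165, and PPARg folds of 7.70 in KO 7 and 8.01 in KO 8, against 6.64 in WT 2 and no peak in WT 4. Another 25 regions (4.04%) had CTCF in all 4 lists, against 6.92% of all regions. None had it in both KO lists and no WT list, a pattern that only 0.0593% of all regions had, so the 0 says nothing about the members.

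H3K4me3 was called at fewer KO-only regions than at the average region. It overlapped 34 KO-only regions in KO 4 (5.49%, interval 3.96 to 7.58) and 28 in WT 2 (4.52%, 3.15 to 6.46), against 21.0% and 20.9% of all regions in the same libraries. The low share was not particular to them. It was 4.95% in KO and 3.47% in WT at regions of 2 KO and no WT list. At regions of 3 KO and 1 WT list it was 8.95% and 7.06%, and at WT-only regions 2.02% and 4.04%. With 1 library a genotype there is no test. Of the KO-only regions 25 were marked in both (4.04%, against 19.7% of all regions), so most H3K4me3 at KO-only regions was also called in WT. Another 9 were marked in KO alone (1.45%, against 1.26% of all regions) and 3 in WT alone (0.485%, against 1.12%), so the share marked in KO alone was near that of all regions. H3K27me3 overlapped 3 in KO (0.485%, against 0.663% of all regions) and 5 in WT (0.808%, against 0.654%), which is also near the share over all regions. In 411 of the 619 (66.4%) none of the other 4 targets was called in any library. The same share was not counted over all regions, so it cannot be read as particular to the KO-only regions.

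The 9 regions with H3K4me3 in KO alone included the start of Inhbb, the beta B subunit of activin B and inhibin B (chr1:119420906-119422777, H3K4me3 fold 5.66), and that of Vav1 (chr17:57278355-57281020). The highest fold was at a region inside Auts2, a gene of neural development (chr5:131537205-131539039, 6.13). A region overlapping an end of Gdf6, a ligand of the BMP family (chr4:9842829-9845694, 5.18), also held H3K27me3, with folds of 3.90 in KO and 4.08 in WT. Regions 17.9 kb from the channel gene Pkd2l1 and 86.8 kb from the ephrin receptor gene Ephb3 followed with 5.18 and 4.77, and the Ephb3 region held H3K27me3 in WT. The H3K27ac peaks of the 3 KO libraries shared no base at Inhbb and 33 bases at Pkd2l1. Of the 22 protein-coding genes with a promoter window inside a KO-only region, 12 had H3K4me3 in both genotypes, 3 in KO alone (Inhbb, Vav1 and Myof) and 7 in neither. Genes without a listed window, such as Gdf6, are not in these counts.

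By strength of the H3K27ac call, the first KO-only region lay at the start of Smpd4, a sphingomyelin phosphodiesterase gene (chr16:17619308-17619948). Its fold was 3.45 in KO 2, 4.22 in KO 3 and 3.58 in KO 4, and H3K4me3 was called there at 11.3 in KO and 12.6 in WT. The next were far from their nearest genes, 248 kb from Fshr, the receptor of follicle-stimulating hormone (chr17:89448878-89451424, folds 3.52, 3.51 and 3.59), and 603 kb from Tns3, a focal adhesion protein gene (chr11:7826316-7829027, 3.85, 3.25 and 3.22). Then came regions 614 bp from Aebp2, a PRC2 cofactor, and 6.37 kb from Prss22, a serine protease gene. The sixth lay 95.3 kb from Akr1d1, the 5beta-reductase of bile acid synthesis (chr6:37670226-37671639), and held PPARg in KO 7 (fold 8.52) and KO 8 (5.61) and in neither WT list. The eighth, at Ccdc120 on chromosome X, did too (10.0 and 8.42). The regions near Nfat5, the factor of the hypertonic response, near the kinase gene Aak1 and inside Zfp469 completed the first 10. At the Nfat5 region the 3 KO peaks shared no base. The best mean percentile of all 619 was 61.6 and the tenth 49.9, so the strongest KO-only regions were average peaks.

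The widest KO-only region, 5282 bp, lay 84.1 kb from Oat, which encodes ornithine aminotransferase (chr7:132468049-132473330). KO 4 covered all of it, KO 2 2921 bp and KO 3 2219 bp. The next was 4947 bp at the start of Ms4a6b, a membrane protein gene of leukocytes (chr19:11515840-11520786), with 1000, 2593 and 4947 bp covered in KO 2, 3 and 4. Regions of 4939, 4706 and 4628 bp followed, 1.11 kb from Slc22a12, a urate transporter gene, and inside Sh2d3c, an adaptor protein gene, and Matn2, a matrix protein gene. KO 4 covered the most bases in each of these 5. At the Slc22a12 region the 3 KO peaks shared no base, and KO 2 covered 758 bp of it.

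Of 21631 protein-coding genes, 405 (1.87%) had a KO-only region within 5 kb of their span, and 566 (2.62%) were the nearest gene of one. The 28 hepatocyte identity genes all had H3K27ac peaks in all 6 libraries, and 0 of the 28 had a KO-only region within 5 kb. Markers of Kupffer cells and macrophages (0 of 24), cholangiocytes (0 of 20), B lymphocytes (0 of 14), and neutrophils and monocytes (0 of 15) had none either. Of stellate cell and matrix genes 2 of 24 had one, of endothelial genes 1 of 24, and of T and NK lymphocyte genes 1 of 24. Over all 8 cell type lists this made 4 of 173 genes. None of these lists had more than 2 such genes, and the shares were not tested. The counts moved with the libraries that entered. Leaving out 1 H3K27ac library gave 2 to 6 stellate and matrix genes, 0 to 4 endothelial, 1 to 3 T and NK, 0 to 3 B cell, 0 to 3 hepatocyte, 0 to 2 macrophage and 0 to 1 cholangiocyte genes, the highest without KO 3 for stellate and macrophage genes and without KO 2 for the endothelial, T and NK, B cell and hepatocyte genes. Without KO 3 or KO 2 the count over all genes was also higher, at 893 and 1432. A rule with 1 list fewer is looser, which favours higher gene counts in advance. With peaks up to 1 kb apart joined, no stellate or endothelial gene had a KO-only region.

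**Figure D4:**
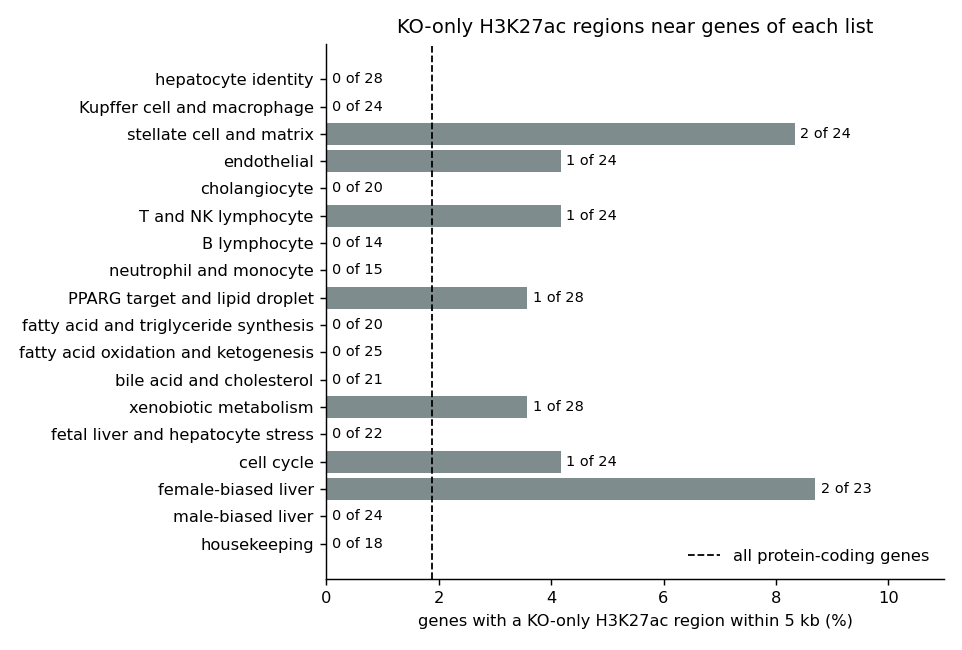
Percentage of the genes of each list with a KO-only H3K27ac region within 5 kb of their span (bars, x axis), with the counts beside the bars; the dashed line is the 1.87% of all protein-coding genes. No bar rests on more than 2 genes, and 11 of the 18 lists have none.

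The 4 cell type genes were Des, Pdgfrb, Eng and Cd3d. Des encodes desmin, the intermediate filament of stellate and muscle cells, and its region lay 1.14 kb from the gene (chr1:75356979-75359152). Within 5 kb of the Des span H3K27ac covered 3476, 1845 and 3447 bp in KO 2, 3 and 4, against 1198, 507 and 0 bp in WT 1, 2 and 4. All KO values lay above all WT values, an order that the choice of the region itself favours. Pdgfrb, the growth factor receptor of stellate cells, had 9566, 12986 and 17121 bp in KO and 7162, 7980 and 3031 bp in WT. Eng encodes endoglin, a TGF-beta co-receptor of endothelium, with 29899, 32363 and 37551 bp in KO and 27290, 30431 and 27712 bp in WT, where KO 2 fell below WT 2. The 3 KO peaks at the Eng region shared no base. Cd3d, a chain of the T cell receptor complex, had 295, 1048 and 2270 bp in KO and no peak in any WT library.

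Of the cell type lists, only that of stellate and matrix genes kept the genotypes apart both in kb covered and per Mb. The 28 hepatocyte genes had 355 to 411 kb covered in KO and 370 to 416 kb in WT, which overlap. Divided by the covered length of the library this was 3.27 to 4.47 kb per Mb in KO and 4.37 to 5.04 in WT, mostly lower in KO with a small overlap. The 3.27 was that of KO 4, the longest list, with 411 kb covered at these genes. All 28 had peaks in every library, so the ratio falls when a list grows at other places. The part of list length in this was not tested. The 24 stellate and matrix genes had a peak at 20 to 22 genes in KO libraries against 17 to 18 in WT, and 119 to 207 kb covered against 74.2 to 116 kb. Per Mb covered this was 1.44 to 1.65 kb per Mb in KO and 0.949 to 1.36 in WT, still without overlap. Among them Timp1 and Lox had no peak in any of the 6 libraries, and Acta2 and Ngfr had one in KO 4 alone. The stellate list also holds Des and Pdgfrb, whose KO-only regions add to the KO side by the rule that chose them. How many of all genes had a peak in each library was not counted. Cholangiocyte genes had 53.6 to 71.7 kb in KO and 48.8 to 52.7 kb in WT, which overlapped per Mb (0.571 to 0.675 against 0.576 to 0.633), and Krt19, Krt7, Epcam and Cftr had no peak in any library. Kupffer cell and macrophage genes (59.6 to 103 kb against 51.2 to 80.7 kb), endothelial genes (261 to 429 kb against 260 to 314 kb), T and NK genes (20.9 to 50.05 kb against 22.5 to 28.8 kb), B cell genes (8.73 to 24.3 kb against 9.11 to 15.7 kb) and neutrophil and monocyte genes (11.5 to 28.2 kb against 13.7 to 16.5 kb) overlapped between genotypes. Vsig4, Marco and Ccr2 of the macrophage list and Cd3e, Cd8a and Cd8b1 of the T cell list had no peak in any library. In bulk tissue more cells of a type and more acetylation per cell cannot be told apart, and the part of cell makeup in the KO-only regions was not tested.

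Among metabolic lists, Cd36 and Cyp2b10 were the genes with a KO-only region nearby, and fatty acid synthesis (0 of 20), fatty acid oxidation and ketogenesis (0 of 25) and bile acid and cholesterol genes (0 of 21) had none. Cd36 takes up long-chain fatty acids and is a PPARg target (1 of 28 genes of its list). Its region lay inside the gene (chr5:17842973-17844550), with H3K27ac folds of 3.17, 2.97 and 3.06 in KO 2, 3 and 4. PPARg was called there in KO 7 (fold 5.57) and KO 8 (7.86) and in neither WT list. Over the span with 5 kb either side, H3K27ac covered 9183, 17402 and 24604 bp in KO and 7214, 8667 and 3705 bp in WT. PPARg peaks numbered 12 in KO 7 and 11 in KO 8, against 5 in WT 2 and 4 in WT 4, and covered 10764 and 13175 bp against 1912 and 1599 bp. The KO libraries lay above the WT libraries for both targets. For H3K27ac that order is favoured by the choice of the region itself. For PPARg the KO lists were longer over the whole genome. They held 27431 and 26345 peaks over 20.8 and 21.1 Mb in KO 7 and KO 8. WT 2 and WT 4 had 15514 and 16612 peaks over 8.99 and 6.90 Mb.

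Cyp2b10, a target of the receptor CAR, is 1 of 28 xenobiotic genes. One KO-only region lay at its start (chr7:25896931-25898285, folds 3.00, 2.81 and 2.89) and held its promoter window, and another lay 12.7 kb before the gene (chr7:25884009-25884987) with PPARg in both KO lists and neither WT list. Between them, 751 bp from the first, was a region called in all 6 libraries. H3K27ac over the gene with 5 kb either side covered 3452, 2458 and 5068 bp in KO and 1929, 3253 and 410 bp in WT, which overlap. PPARg had 4 and 3 peaks in KO against 1 and 0 in WT, whose lists were shorter over the whole genome. Reads could be shared with other Cyp2b genes. Cd36 and Cyp2b10 are both expressed more in female than in male mouse liver, and they were the 2 of 23 genes of the female-biased list with a KO-only region, with 0 of 24 in the male-biased list and 1.87% of all genes. These counts are too small to compare and were not tested, and the female-biased count was 0 with a −log10 q of at least 2 and 1 with lists of equal length or with peaks up to 1 kb apart joined. All 6 H3K27ac libraries had peaks at 4 of 4 Y-linked genes and none at Xist.

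**Figure D5:**
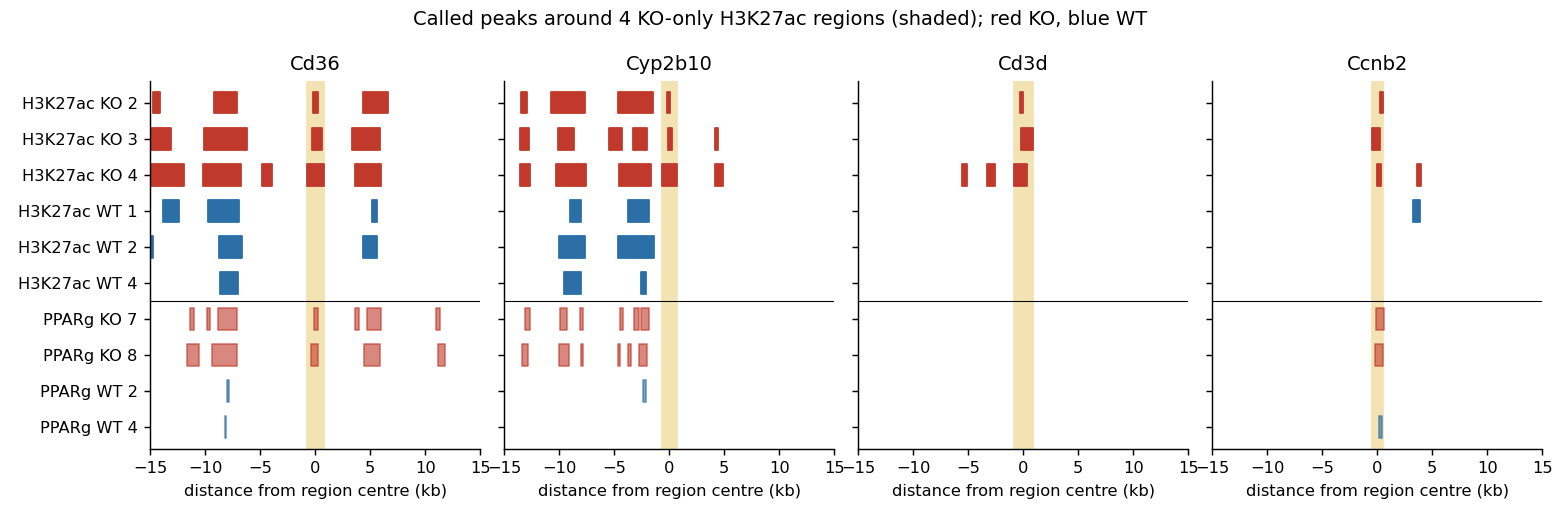
Called H3K27ac and PPARg peaks within 15 kb of 4 KO-only regions (shaded) at Cd36, Cyp2b10, Cd3d and Ccnb2; x axis, distance from the region's centre in kb, 1 row a library, KO rows above WT rows within each target. H3K27ac WT rows are empty inside the shading, and PPARg enters it in KO 7 and KO 8 at Cd36 and in KO 7, KO 8 and WT 4 at Ccnb2.

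Ccnb2, cyclin B2 of the entry into mitosis, was 1 of 24 cell cycle genes. Its region (chr9:70406847-70407803) overlapped an end of the gene and had H3K27ac folds of 2.95, 3.04 and 2.57, but no base was shared by the 3 KO peaks. PPARg folds there were 14.03 in KO 7 and 10.1 in KO 8, against 5.28 in WT 4 and no peak in WT 2. Fetal liver and stress genes (0 of 22) and housekeeping genes (0 of 18) had no KO-only region within 5 kb.

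Counted by nearest gene at any distance, Col3a1 (11.6 kb), Pecam1 (7.30 kb), Tspan8 (35.7 kb), Apob (160 kb) and Moxd1 (131 kb) joined these, and Sox9 and Myc with 2 regions each. Sox9 is a factor of bile duct cells, and its regions lay 29.9 and 223 kb away, the first with PPARg in both KO lists and neither WT list. The Myc regions lay 213 and 510 kb away. At the Sox9 span itself H3K27ac covered 1910, 1936 and 2457 bp in KO and 2145, 2066 and 2143 bp in WT.

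Further lists were written after the nearest genes had been seen, so their counts follow from a choice made on these data. That choice raises them above the 1.87% of all genes, and no enrichment can be read from them. Of 24 Notch pathway genes 3 had a KO-only region within 5 kb, the DNA-binding factor Rbpj and its coactivators Maml2 and Maml3. Of 26 TGF-beta and activin genes there were 4, the activin subunit Inhbb, the activator Thbs1, the receptor Tgfbr1 and the signal transducer Smad3. Of 20 Hippo pathway genes there were 2, the factor Tead1 and the kinase Lats2. Matrix genes included Col27a1 (1 of 18 collagens) and Thbs1, Thbs2 and Fbln5 (3 of 14 fibulins, thrombospondins and fibrillins). Genes of leukocytes were Vav1, Vav3 and Arhgap25 (3 of 12), Gimap3 (1 of 8) and Ms4a6b (1 of 12). Of 19 insulin signalling genes 2 had one, Gab1 and Trib2, and 6 were a nearest gene, among them Insr, Irs2 and Foxo1 at 19.0, 53.5 and 46.5 kb. The Irs2 region held PPARg in both KO lists and neither WT list. Genes of several of these lists are long, with a median span of 114 kb for collagens, 68.8 kb for the Vav and related exchange factors, 68.7 kb for TGF-beta, 69.0 kb for insulin signalling and 44.4 kb for Hippo, against 17.3 kb for all genes. The median was 44.0 kb for fibulins, thrombospondins and fibrillins and 19.8 kb for Notch genes. The Notch genes with a region were far longer than that: Maml3 (chr3:51687320-52105319), Maml2 (chr9:13296561-13709533) and Rbpj (chr5:53555779-53657445). A long gene meets more regions by its length.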

How the data were processed

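The 18 libraries were deposited as MACS2 peak lists, 1 per library. Per the submitters' processing notes, the build was mm10, and the notes name MACS2 2.1.2, BWA 0.7.12, deepTools 3.1.3 and Picard 1.77 without their order. The control used for peak calling is not given in the sources used here. For each peak the authors deposited a fold enrichment (a ratio over background) and a −log10 p and −log10 q, and a score that was not used. The lowest −log10 q was near 1 for H3K27ac and H3K27me3, near 1.3 for H3K4me3 and PPARg WT 4, and near 3 in the CTCF lists and PPARg WT 2, KO 7 and KO 8. Per the file names the CTCF lists were freed of blacklisted regions, and the PPARg lists were not. Read depth is unknown.

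Lists were joined with Python 3.11.15 and pandas by overlaps of at least 1 bp, and the joining was checked on simulated data. A region's fold or −log10 q in a list is the highest of its peaks. Shares of regions with a peak were compared over libraries by two-sided exact permutation tests in scipy 1.17.1, at a threshold of 0.05. Genes and promoter windows are those of RefSeq (GRCm38.p6), and 406 of 413 list entries matched a gene. The windows used here lack chromosome 18 and some genes of other chromosomes, such as Gdf6, so counts at gene starts are lower bounds. Named are the genes nearest the 10 best-ranked regions, the 5 widest, the 5 with the highest PPARg fold among those with PPARg in both KO and no WT lists, the 5 with the highest H3K4me3 fold in KO alone, and each list gene within 5 kb. The members and lists were chosen with earlier results of these data known. The alternatives are given in the closing section.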

Additional observations from a re-analysis of the deposited data

How the results depend on the processing

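No paired analysis was possible because the PPARg and CTCF groups share no replicate numbers and the H3K27ac counts come from no test. Leaving out 1 H3K27ac library gave 718 to 2353 KO-only regions, 119 to 530 WT-only regions and 477 to 1432 genes within 5 kb. The libraries whose absence moved the KO-only and gene counts by over 1.5 times were KO 2 (2353 regions, 1432 genes), KO 3 (1411, 893), WT 2 (1192, 758) and WT 1 (964, 640). The rule is looser with 1 list fewer, so a rise of these counts was favoured in advance whichever list was left out. Leaving out 1 H3K27ac or 1 PPARg library, the KO minus WT PPARg share lay between 8.48 (without H3K27ac KO 2) and 15.9 points (without PPARg KO 8), and its log2 difference relative to all regions between 1.06 (without H3K27ac WT 2) and 1.76 (without PPARg WT 4). Leaving out 1 H3K27ac or 1 CTCF library, the CTCF share lay between −1.86 (without CTCF WT165) and −0.696 points (without H3K27ac KO 4), and its log2 difference between −0.0652 and 0.126 without the same libraries. Leaving out 1 H3K27ac library, H3K4me3 shares lay between 4.75% and 7.26% in KO and 3.69% and 6.21% in WT, and H3K27me3 shares between 0.419% and 0.934% in KO and 0.587% and 1.04% in WT.

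With H3K27ac peaks of a −log10 q of at least 2 there were 226 KO-only regions, near 167 genes, with H3K4me3 at 14.2% in KO and 11.9% in WT and H3K27me3 at 2.65% in KO. Lists of equal length gave 382 regions near 242 genes, with H3K4me3 at 8.64% in KO and 7.59% in WT and H3K27me3 at 0.262% in WT. Lists of equal covered length gave 35 regions near 27 genes, 9 of which overlapped the 619, with H3K4me3 at 20% in KO and 14.3% in WT and H3K27me3 at 0% in KO and 0% in WT. Stricter H3K4me3 peaks (−log10 q of at least 10) gave 2.1% in KO and 1.13% in WT, and stricter H3K27me3 peaks (at least 2) 0.162% in WT. Counting H3K27me3 peaks within 1 kb gave 1.94% in WT, and genes within 25 kb numbered 693.

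The PPARg difference kept its sign in every alternative run, with the libraries of the genotypes apart wherever both had 2. The CTCF difference relative to all regions had no stable sign: it was 0.22 with the stricter H3K27ac threshold, 0.33 with equal covered length, 0.0241 with peaks up to 1 kb apart joined, 0.12 with stricter CTCF peaks and 0.11 with CTCF lists of equal length, where the CTCF share differed by 0.323 points. The cause was not tested. With 2 libraries a genotype no exact permutation p could go below 0.333, and peak lists do not show signal below the calling threshold.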
